A study of Mus musculus with 2 samples.

Results

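The genes described here steer T cells into and out of lymphoid tissue: *Ccr7*, *S1pr1*, *S1pr4*, *Klf2*, *Klf3* and *Cd69*. They were chosen by name as receptors and factors of lymphoid recirculation, with earlier results of these data known. They are 6 of the 14732 gene symbols listed for at least 1 library. CD8+ T cells were taken from the spleens and lymph nodes of C57BL/6 mice, aged 6 to 8 wk, that carried the OT-I transgene, and were activated for 24 h with 2.5 ng/mL of SIINFEKL peptide plus 10 U/mL of IL-2. This transgene encodes a T cell receptor for this peptide, so the cells of both groups share one antigen specificity. Cells were then transduced with a retroviral vector (RVKM) that carried an IRES-hCD2 cassette, either with Eomes (group Eomes) or without it (group Ctrl, the empty vector). Cells with hCD2 on their surface were sorted after 48 h and given peptide and IL-2 again for 3 days at 40000 cells per well, so every value comes from repeatedly stimulated cells in culture. How many mice were pooled is not given in the sources used here.

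The recirculation of T cells rests on opposed signals. CCR7, a chemokine receptor, brings naive and central memory cells from blood into lymph nodes. S1PR1, a receptor for sphingosine 1-phosphate (S1P), draws cells back out toward the S1P-rich lymph and blood. KLF2, a zinc finger transcription factor under the control of FOXO1, activates *S1pr1*, and is switched down when the T cell receptor is engaged. CD69, an early activation antigen, binds S1PR1 in the membrane and takes it into the cell, which holds activated cells in the node. S1PR4 is a related S1P receptor of lymphocytes, and KLF3 is a Kruppel-like factor that mostly acts as a repressor.

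The upstream sequences of 3 of the 6 genes, *Klf2*, *Klf3* and *S1pr4*, were matched in RefSeq (GRCm38.p6, which is mm10). The 250 bases before the RefSeq start are shown for *Klf2* and *S1pr4*, the genes of these 3 that were expressed, because their base content differs. The *Klf2* sequence lies at chr8:72318812-72319061 on the plus strand, and the *S1pr4* sequence at chr10:81500138-81500387 on the minus strand. The gene positions given further on are those of GENCODE, whose start of *Klf2*, at 72319033, lies inside the *Klf2* window. The GENCODE start of *Klf3*, at 64803388, likewise lies inside the *Klf3* window (chr5:64803271-64803520, plus strand). These 2 windows therefore hold bases of the annotated gene, and distances here are counted from the RefSeq start only. Capitals mark a match to the MEF2 consensus, the binding site of the MEF2 factors, through which the kinase ERK5 is known to act on *Klf2*.

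Klf2: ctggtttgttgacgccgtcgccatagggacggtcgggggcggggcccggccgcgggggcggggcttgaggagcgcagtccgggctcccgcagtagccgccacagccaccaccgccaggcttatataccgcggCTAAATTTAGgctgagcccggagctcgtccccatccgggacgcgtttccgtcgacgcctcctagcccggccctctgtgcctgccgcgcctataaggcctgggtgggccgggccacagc

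S1pr4: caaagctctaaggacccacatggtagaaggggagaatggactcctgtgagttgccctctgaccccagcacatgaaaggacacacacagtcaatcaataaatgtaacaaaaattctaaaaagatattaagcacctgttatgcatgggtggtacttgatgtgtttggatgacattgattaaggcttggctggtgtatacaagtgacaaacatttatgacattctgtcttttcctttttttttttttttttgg

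The *Klf2* sequence is 71.2% G or C with 29 CpG dinucleotides, and the *S1pr4* sequence is 38.8% G or C with 0. The MEF2 match in *Klf2* begins 118 bases before the RefSeq start, and 2.92% of 32851 mouse promoter sequences of the same length hold such a match. This motif was added after the *Klf2* sequence had been seen. On either strand, TCACACC (the core of the site of T-box factors such as Eomes), CACACCC (Kruppel-like factors, which overlaps the T-box letters), GTAAACA (FOXO) and TGACTCA (AP-1) had no match in the 3 sequences, which says only that these letters are absent from these windows. These letters are found in 3.33%, 6.93%, 3.17% and 4.46% of all promoters, respectively.

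Values are given as FPKM, a read number corrected for transcript length and sequencing depth, so levels of different genes can be compared. The authors deposited 1 library for each group, so no difference could be set against a spread between replicates, and p-values are left out. From short genes with few reads, the depth was estimated at 19350000 reads for Ctrl and 19150000 reads for Eomes. Reads approximated from that depth and the transcript length gave exact binomial (Clopper-Pearson) 95% intervals of the log2 ratio of Eomes over Ctrl. These intervals cover counting error between the 2 libraries, not the spread between cultures. *Eomes* itself was at an FPKM of 2.47 in Ctrl and 129.6 in the Eomes library.

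The markers of the sorted cells were high in both libraries, with *Cd8a* at an FPKM of 181.8 and 99.1 and *Cd3e* at 145.2 and 122.9 in Ctrl and Eomes. Of 8 B cell markers, *Ms4a1*, *Pax5* and *Blnk* were not listed in either library, and *Cd79b* alone exceeded an FPKM of 1, at 2.79 and 1.56. The summed FPKM of these 8 genes was 3.46 and 1.96. Of 10 myeloid and dendritic cell markers, 5 were not listed, and the sum was 2.33 and 2.08. Of 4 CD4 T cell markers, *Cd4* was at 0.03 and 0.08, and *Zbtb7b* alone exceeded 1, at 13.8 and 11.6. The sum of these 4 genes was 14.32 and 11.84. Among 4 natural killer cell markers *Ncr1* and *Klra8* were not listed, *Nkg7* was at 649.7 and 785.4, and *Klrb1c* was at 0.31 in Ctrl and 5.74 in Eomes. In 6 markers of lymph node stroma and endothelium *Pecam1* alone exceeded 1, at 5.10 and 3.46. Of the 10 CD8 T cell markers, *Cd8a* and *Cd2* were lower by over 1.5-fold in Eomes, which is 20%. Of all genes with an FPKM of 1 or more in either library, 5.19% were lower to that extent.

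The 6 genes each had a lower FPKM in Eomes than in Ctrl, by between 1.25-fold and 3.85-fold. *Ccr7* and *S1pr1* were at 39.2% and 43.7% of their Ctrl level, *Cd69*, *Klf2* and *S1pr4* differed by less than 1.5-fold, and *Klf3* was scarce in both libraries. A gene was counted as expressed where either library had an FPKM of 1 or more, which held for 5 of the 6 genes and left out *Klf3*. Of these 5 genes, 2 were lower by over 1.5-fold and 0 higher by over 1.5-fold. Among all 9925 expressed genes, 5.19% were lower by over 1.5-fold and 2.46% higher by over 1.5-fold. The median log2 ratio was -0.49 over the 5 genes and -0.0037 over all expressed genes. Because the genes were chosen with earlier results known, these figures describe them and do not test them as a set. In bulk RNA, fewer cells with a transcript and less of it per cell cannot be told apart.

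**Figure D1:**
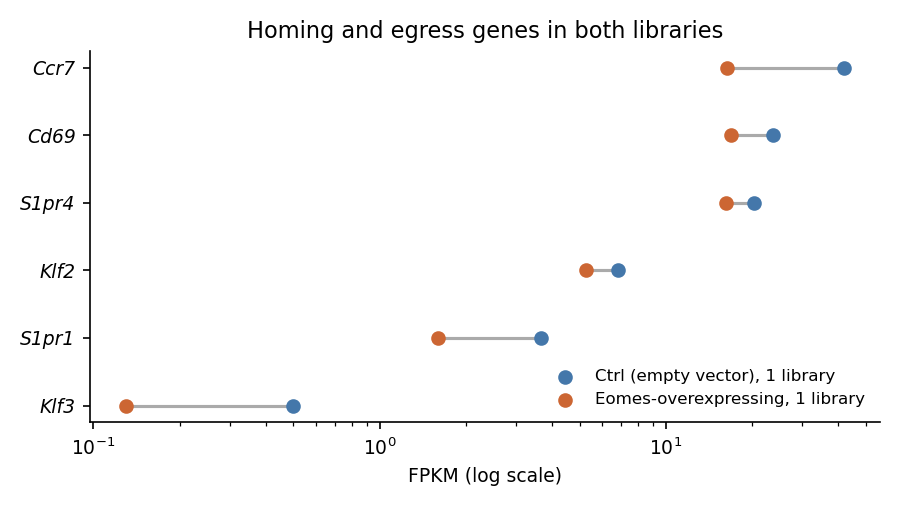
FPKM of the 6 genes on a log axis, 1 point for the Ctrl library and 1 for the Eomes library, joined by a line. Each gene has its Eomes point to the left of its Ctrl point, with the longest lines for *Klf3*, *Ccr7* and *S1pr1*.

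*Ccr7* (chromosome 11 of mm10, 99144196 to 99155077, minus strand, 3 exons) was the most abundant of the 6 genes in Ctrl, at an FPKM of 41.9. In Eomes it was at 16.4, which is 39.2% of the Ctrl value. The log2 ratio was -1.35 (95% counting interval -1.49 to -1.22 from about 1604 and 622 reads). Counted from the lowest ratio, *Ccr7* was number 83 of the 9925 expressed genes. The position is more extreme among the 2889 genes with a mean FPKM of 20 to 100, whose ratios ran from -0.46 to 0.40 in their central 95%, and of which 0.138% lay below *Ccr7*. The expressed genes with the most similar pair of values were *St6gal1*, at 39.95 and 16.9, and *Ttc39c*, at 42.6 and 18.01, by distance of the log2 FPKM over the 2 libraries.

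*S1pr1* (chromosome 3, 115710433 to 115715072, minus strand, 2 exons) was at an FPKM of 3.66 in Ctrl and 1.60 in Eomes, or 43.7% of Ctrl. Its log2 ratio was -1.19 (interval -1.57 to -0.84 from about 216 and 93 reads). The size is near that of *Ccr7*, but the error is wider because fewer reads were counted. Low genes also scattered more: among 2414 genes with a mean FPKM of 1 to 5 the central 95% of ratios ran from -1.21 to 0.78, and *S1pr1* lay just inside. In that range 11.5% of genes were lower by over 1.5-fold in Eomes, against 1.45% in the range that holds *Ccr7*. The nearest pairs of values were those of *Lsr* (3.85 and 1.53) and *Phf11a* (3.83 and 1.70).

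*S1pr4* (chromosome 10, 81497747 to 81500132, minus strand, 1 exon) was the more abundant S1P receptor, at an FPKM of 20.4 in Ctrl and 16.3 in Eomes. The log2 ratio was -0.32 (interval -0.47 to -0.18 from about 940 and 743 reads), which does not reach 1.5-fold. In its range, a mean FPKM of 5 to 20, 3.54% of 3555 genes were lower by over 1.5-fold. *Cd9*, at 20.6 and 16.4, and *Mdfic*, at 19.7 and 16.3, had the most similar values. In Ctrl the level of *S1pr4* was 5.56 times that of *S1pr1*, and in Eomes 10.2 times. The quotient of *S1pr1* to *S1pr4* had a log2 change of -0.87 from Ctrl to Eomes (95% counting interval -1.25 to -0.49, a normal approximation on the log scale).

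Of the other S1P receptors, *S1pr2*, a receptor coupled to G12/13 proteins that restrains migration, was at 6.04 and 5.65, and its interval of -0.25 to 0.06 included equal levels. *S1pr3* was at 0.09 and 0.13, and *S1pr5*, the egress receptor of natural killer cells, was not listed in either library. Of the 3 expressed receptors, *S1pr1* was therefore the one past 1.5-fold. Among 14 genes that make, cleave or transport S1P and related ceramides, 9 were expressed, 1 lower by over 1.5-fold and 1 higher by over 1.5-fold, with a median log2 ratio of 0.23 (0.10 after centring each ratio by the GC content of the transcript). The first was *Plpp1*, a lipid phosphatase (3.65 and 2.20), and the other *Cers6*, a ceramide synthase (1.95 and 3.25). Each is 11.1% of the 9 genes, against 5.19% lower and 2.46% higher over all expressed genes.

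**Figure D2:**
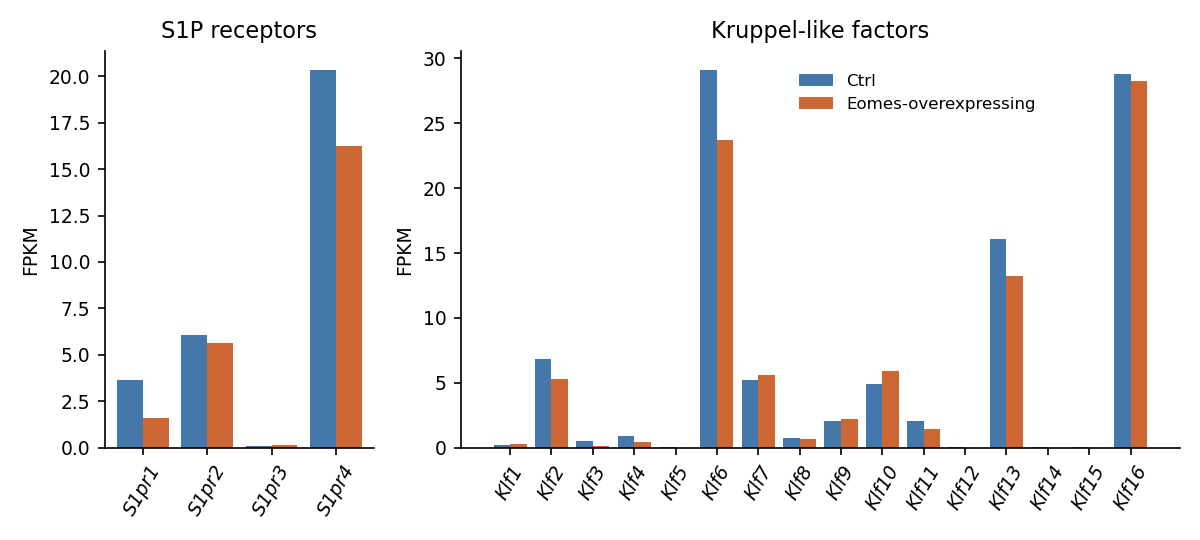
FPKM of the S1P receptors (left) and the Kruppel-like factors (right) that were listed for at least 1 library, with 1 bar for Ctrl and 1 for Eomes. *S1pr4* is the tallest receptor in both libraries, and *Klf6*, *Klf16* and *Klf13* stand above *Klf2*.

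*Klf2* (chromosome 8, 72319033 to 72321656, plus strand, 3 exons) was at an FPKM of 6.80 in Ctrl and 5.26 in Eomes, 77.4% of Ctrl. The log2 ratio was -0.37 (interval -0.65 to -0.09 from about 243 and 186 reads), an interval that excludes equal levels by counting error alone and includes 1.5-fold. Of all expressed genes 9.91% had a lower ratio. *Klhl22* (6.82 and 5.24) and *Iqcc* (6.91 and 5.22) had nearly the same values. The counting intervals of *Klf2* and of *S1pr1*, its known target, do not overlap. Whether the 2 differences are linked was not tested.

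*Klf3* (chromosome 5, 64803388 to 64832901, plus strand, 6 exons) was under an FPKM of 1 in both libraries, at 0.50 in Ctrl and 0.13 in Eomes. The log2 ratio was -1.94 (interval -2.96 to -1.06 from about 51 and 13 reads). The annotation holds 9 transcripts of *Klf3*, and with the shortest coding one in place of the longest the values would stand for about 6 and 1 reads. With 1 added to both values the log2 ratio was -0.41. Among 2287 genes with a mean FPKM of 0.1 to 1, 28.5% were lower by over 1.5-fold in Eomes, so a ratio of this kind is common at this level. *Pcbd1* (0.51 and 0.13) and *Amd2* (0.50 and 0.14) had the nearest values. Genes overlapping *Klf3* in the annotation, *Gm20033* and *C230096K16Rik*, were not listed in either library.

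Across the Kruppel-like factor family, 8 of 17 genes were expressed. Of these 8, 0 were higher by over 1.5-fold or lower, against 2.46% and 5.19% of all expressed genes. The log2 ratios of the 8 genes ran from -0.51 (*Klf11*) to 0.26 (*Klf10*), with a median of -0.15. *Klf6* (29.1 and 23.7), *Klf16* (28.8 and 28.3) and *Klf13* (16.1 and 13.2) were each more abundant than *Klf2* in both libraries. *Klf4*, like *Klf2* a factor of quiescent T cells, was at 0.91 and 0.45, and *Klf7* was at 5.18 and 5.6.

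*Cd69* (chromosome 6, 129267325 to 129275436, minus strand, 5 exons) was at an FPKM of 23.7 in Ctrl and 16.9 in Eomes, 71.2% of Ctrl. The log2 ratio was -0.49 (interval -0.65 to -0.33 from about 773 and 544 reads), so counting error alone does not place it on either side of 1.5-fold. *Cd69* has the lowest GC content of the 6 transcripts, 41.5%. Across expressed genes the log2 ratio was lower at higher GC content (Spearman's rho -0.44, over genes of the same 2 libraries), and with the median of genes of similar GC content subtracted, *Cd69* was at -0.71, past 1.5-fold. The same step gave -1.26 for *Ccr7*, -1.21 for *S1pr1*, -0.22 for *S1pr4*, -0.29 for *Klf2* and -2.03 for *Klf3*. *Fam213a* (24.0 and 16.7) and *Hpcal1* (23.4 and 16.4) were most like *Cd69*.

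**Figure D3:**
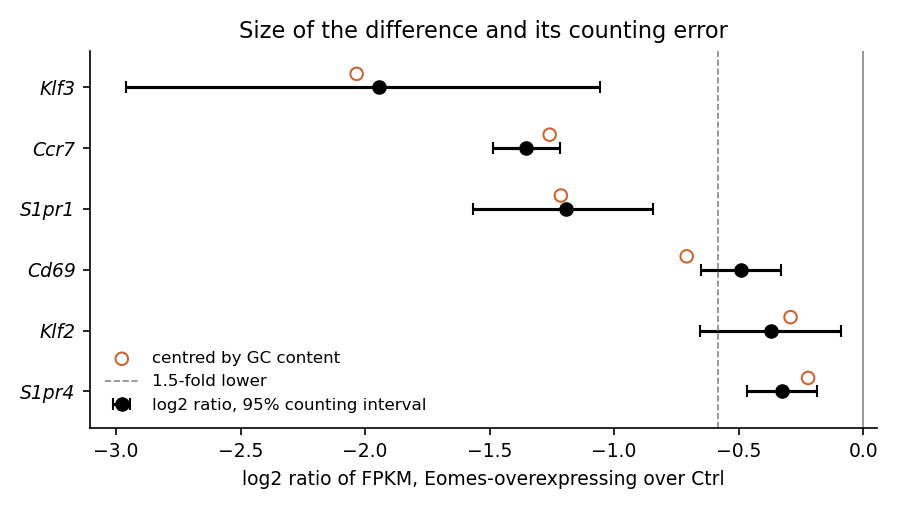
Log2 ratio of FPKM, Eomes over Ctrl, for each of the 6 genes, with its 95% counting interval (black) and the value after centring by GC content (open circle, drawn just above). The intervals of *Klf3*, *Ccr7* and *S1pr1* lie wholly beyond the dashed line at 1.5-fold lower, and those of *Cd69* and *Klf2* cross it.

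The order of the genes by level differed little between the libraries. In Ctrl *Ccr7* (41.9) stood above *Cd69* (23.7) and *S1pr4* (20.4), followed by *Klf2*, *S1pr1* and *Klf3*. In Eomes *Cd69* (16.9), *Ccr7* (16.4) and *S1pr4* (16.3) were so close that their order cannot be told without replicates. The lower places were again held by *Klf2*, *S1pr1* and *Klf3*.

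**Figure D4:**
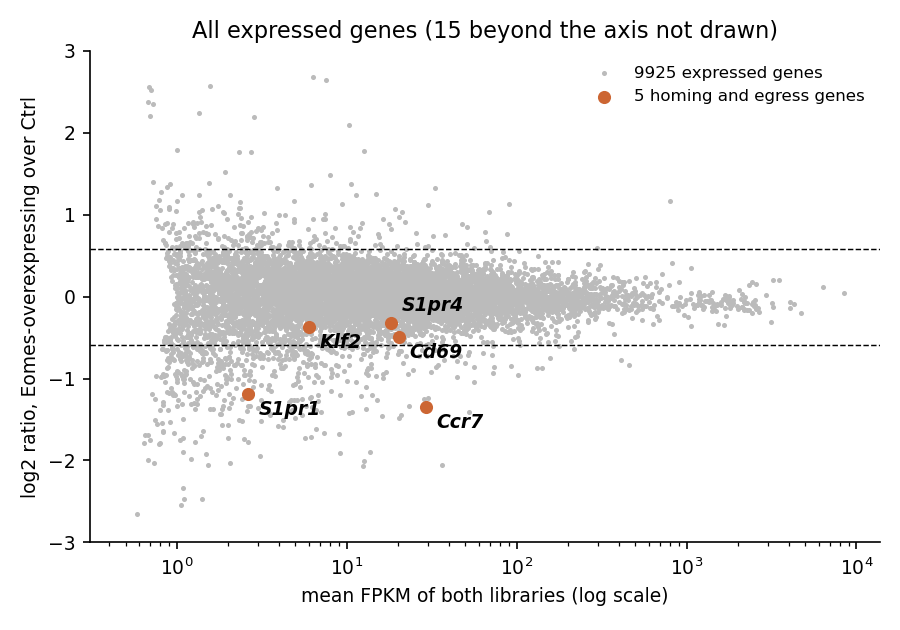
Log2 ratio of Eomes over Ctrl against the mean FPKM of both libraries (log axis) for the expressed genes (grey), with the 5 expressed homing and egress genes in orange and dashed lines at 1.5-fold. *Ccr7* lies far below the genes of its abundance, *S1pr1* at the lower edge of a broader cloud, and *S1pr4*, *Klf2* and *Cd69* between 0 and the lower dashed line.

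The other receptors for entry into lymph nodes differed among themselves. Of 10 such genes, *Ccr7* included, all were expressed, 5 were lower by over 1.5-fold and 0 higher by over 1.5-fold. Their median log2 ratio was -0.48. Across all 9925 expressed genes, 5.19% were lower by over 1.5-fold and 2.46% higher. This list too was chosen with earlier results known, so the shares are a description only. *Cxcr4*, the receptor for CXCL12, was at 13.6 in Ctrl and 6.63 in Eomes, a log2 ratio of -1.03. The integrin chain *Itgb7* was at 89.0 and 54.2 and its partner *Itga4* at 1.81 and 1.20, the latter named after its values were seen. The integrin genes *Itgal* (142.5 and 173.3), *Itgb2* (169.3 and 169.8) and *Itgb1* (56.9 and 73.2), which serve adhesion and arrest, were not lower in Eomes. Of the chemokine ligands of CCR7 and CXCR4 none was expressed: *Ccl19* and *Ccl21a* were not listed, and *Cxcl12* was at 0.19 and 0.05.

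The regulators upstream of *Klf2* and *Ccr7* differed in both directions, mostly by less than 1.5-fold. *Foxo1* was at an FPKM of 14.4 in Ctrl and 15.7 in Eomes, and *Mapk7*, which encodes ERK5, at 8.16 and 8.26. *Foxo3* was at 11.1 and 7.93, a log2 ratio of -0.48 (interval -0.60 to -0.36), and *Pik3r1*, a regulatory subunit of PI3K, at 4.07 and 5.93, a log2 ratio of 0.54. Both are larger in size than the log2 ratio of *Klf2* itself, -0.37, but the *Klf2* interval of -0.65 to -0.09 takes in both sizes. The MEF2 genes *Mef2a* (5.52 and 7.91) and *Mef2d* (28.6 and 30.9) were somewhat higher in Eomes, and *Mef2c* was at 0.44 and 0.43. Centring by GC content took the log2 ratio of *Mef2a* from 0.52 to 0.30 and that of *Mef2d* from 0.11 to 0.21. That of *Pik3r1* went from 0.54 to 0.44. Of 15 expressed genes of the FOXO axis, 1 (6.67%) was lower by over 1.5-fold, near the 5.19% of all expressed genes, and 0 higher by over 1.5-fold, with a median log2 ratio of 0.04. The gene past the threshold was *Pik3ip1*, an inhibitor of PI3K (2.50 and 1.63), whose log2 ratio of -0.62 was -0.55 after centring by GC content, short of 1.5-fold.

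Likewise, of 26 genes for receptor signalling and cell movement, 1 (3.85%) was lower by over 1.5-fold and 0 higher by over 1.5-fold. Over all expressed genes 5.19% were lower and 2.46% higher. The 1 lower gene was *Arrb1*, which encodes an arrestin (3.51 and 2.08). *Gnai2*, the G protein subunit through which CCR7 and S1PR1 signal, was at 299.9 and 273.6, and *Grk2*, a kinase that desensitizes S1PR1, at 249.98 and 220.5. *Rgs1*, which dampens chemokine signalling, was at 27.6 and 29.2, with a log2 ratio of 0.08 that became -0.20 after centring by GC content. The median of the 26 genes was 0.03, and -0.02 after that centring.

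Among 12 other migration receptors, 8 were expressed, 3 higher by over 1.5-fold and 2 lower by over 1.5-fold. Across all 9925 expressed genes the shares were 2.46% higher and 5.19% lower. *Ccr2* (3.91 and 16.7), a receptor for inflammatory chemokines, was higher in Eomes, as was *P2ry10* (7.56 and 11.6), whose log2 ratio of 0.62 was 0.33 after centring by GC content. *Cxcr3* (21.2 and 8.83) and *Ccr4* (24.8 and 15.7) were lower. *Ccr7* was thus far above *Ccr2* in Ctrl, at 41.9 and 3.91, and nearly level with it in Eomes, at 16.4 and 16.7.

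CD69 also marks cells that stay in tissues, and it is an early activation antigen. Of 7 expressed genes among 12 residency markers, 0 were past 1.5-fold in either direction, and *Cd69* had the lowest ratio. Over all expressed genes 5.19% were lower by over 1.5-fold and 2.46% higher. *Itgae* (0.58 and 0.17) and *Itga1* (0.22 and 0.05), integrins of resident cells, were under an FPKM of 1 and lower in Eomes. So were *P2rx7* (0.25 and 0.03) and *Ahr* (0.45 and 0.32), and *Zfp683* was not listed. Among genes with a mean FPKM of 0.1 to 1, 28.5% were lower by over 1.5-fold. The median log2 ratio of the 7 expressed residency markers, 0.08, turned to -0.20 with GC centring. The same centring put *Cd69* at -0.71, past 1.5-fold. Of 12 early activation genes, all expressed, 1 was higher by over 1.5-fold and 1 lower by over 1.5-fold, with a median of -0.15. These were *Nr4a3* (12.8 and 19.5) and *Egr3* (7.52 and 4.19), factors induced by the T cell receptor. Each is 8.33% of the 12 genes, against 2.46% higher and 5.19% lower over all expressed genes. After centring by GC content the log2 ratio of *Nr4a3* went from 0.60 to 0.58, just short of 1.5-fold.

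**Figure D5:**
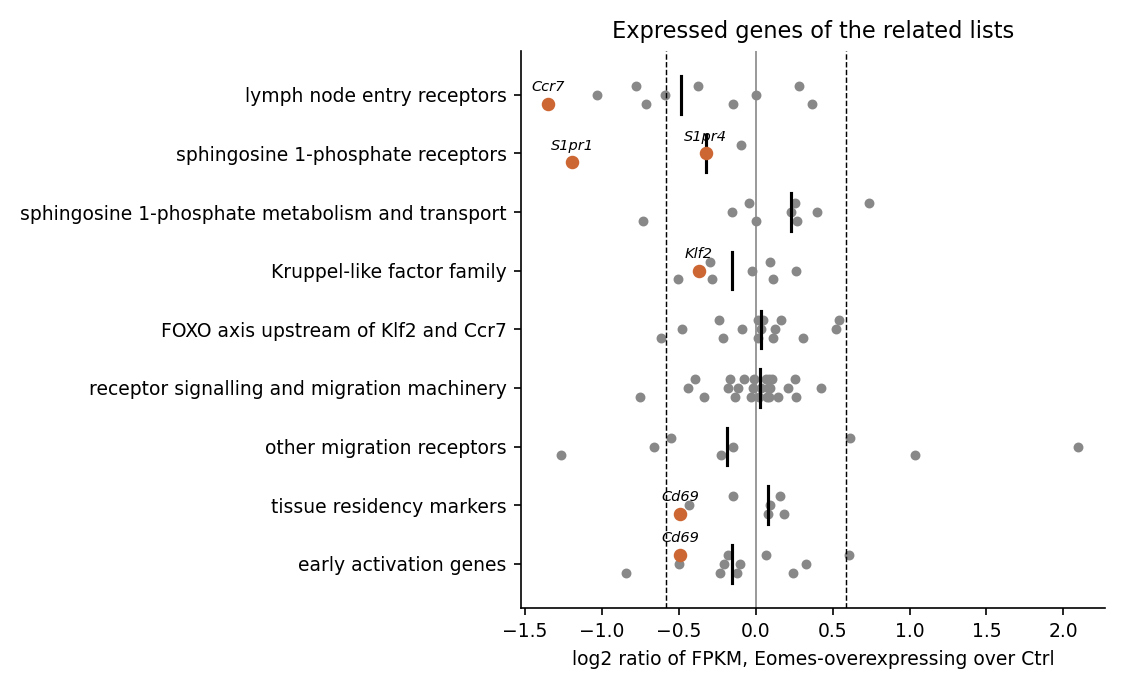
Log2 ratio of Eomes over Ctrl for the expressed genes of 9 related lists, 1 point per gene, with the homing and egress genes in orange, the median of each list as a black bar and dashed lines at 1.5-fold. *Ccr7* and *S1pr1* have the lowest values of their lists, and the points of the FOXO axis and of the signalling machinery lie mostly between the dashed lines.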

How the data were processed

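RNA from 1 Ctrl and 1 Eomes culture was sequenced by the authors on an Illumina HiSeq instrument. Reads were filtered with SOAPnuke and mapped to mm10 with HISAT and Bowtie2. RSEM gave the FPKM values that the authors deposited, 1 per gene symbol, printed with 2 decimals from 0.01 upward. In the methods of the study these values are named RPKM. The authors' annotation, strand setting and tool versions are not given in the sources used here.

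Log2 ratios were computed in Python 3.11.15 (numpy 2.4.6, pandas 2.3.3, scipy 1.17.1; plots with matplotlib 3.10.9), with values under 0.01 or not listed set to 0.01. Symbols turned into dates (20 in Ctrl, 19 in Eomes) were left out. The threshold of 1.5-fold is the one the study uses. Positions, lengths and GC content came from GENCODE M21 (mm10), using the longest coding transcript, or the longest of any type where none was coding. A transcript was found for 99.1% of expressed genes. Depth was the value at which FPKM times length of short genes with a single transcript came closest to whole reads (100 genes in Ctrl, 110 in Eomes). Of the statistics, the calls past 1.5-fold and the depth estimate were first tested on simulated data. The simulation had counting error only and known transcript lengths. Its changes were larger than 1.5-fold and set in genes of higher mean FPKM than *S1pr1* and *Klf3*. It therefore does not cover the calls of these genes, or differences near 1.5-fold such as that of *Cd69*. Read numbers are approximate, since the transcript lengths used by the authors are unknown.

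The members and the gene lists were chosen with earlier results of these data known. Named genes were the 6 members, up to 4 genes per list with the largest log2 ratio past 1.5-fold, the S1P receptors and Kruppel-like factors, and for each member the 2 genes nearest in both FPKM values. Other genes named for their role were chosen after their values were seen. Alternatives were pseudocounts, scalings, FPKM minimums, a 2-fold threshold and centring in 20 bins of GC content. Some genes of the lists are counted but not reported here by name.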

Additional observations from a re-analysis of the deposited data

How the results depend on the processing

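No paired analysis was possible because each group has 1 library, and for the same reason no library could be left out. The log2 ratios of the 6 genes and of the *S1pr1* to *S1pr4* quotient were below 0 under the 6 alternatives for scale, pseudocount and GC content, and 39 of 42 values stayed inside the counting interval. With a pseudocount of 1, *S1pr1* was at -0.84 and *Klf3* at -0.41, by construction nearer to 0 for low values. With centring by GC content, *Cd69* was at -0.71. Of the members, 1 was lower by over 1.5-fold at a minimum FPKM of 5, where *S1pr1* is no longer counted. Over all expressed genes, 244 exceeded 1.5-fold upward and 515 downward. These counts were 118 and 285 with a pseudocount of 1, 1356 and 2088 with no minimum, 95 and 213 with a minimum of 5, and 69 and 175 at 2-fold. At the estimated depth, *Klf3* is limited by depth, and *S1pr1* and *Klf2* to intervals over 0.5 wide.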

Other observations

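The genes that lie beside the homing and egress genes were looked up within 100 kb on either side, a window chosen after the data had been seen. Beside *Ccr7*, *Igfbp4*, which encodes a binding protein of insulin-like growth factors, had a log2 ratio of -1.56, and *Smarce1*, a chromatin remodelling subunit, of 0.07. Beside *S1pr4*, 6 genes were expressed, with *Gna15*, a G protein subunit of blood cells, the lowest at -0.95 and *Ncln* and *Gna11* the highest at 0.01. Beside *Klf2*, 3 genes ran from -0.27 to -0.13, beside *Cd69* the single gene was *Clec2d* at -0.12, and beside *Klf3* it was *Tlr1* at -0.32. No expressed gene lay within 100 kb of *S1pr1*. These values are a description of 1 pair of libraries.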
